A study of Mus musculus with 6 samples.

Results

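A set of 10 genes of the heat shock protein family was followed in the epithelium of the mouse jejunum, which lies between duodenum and ileum, after induction of a Musashi transgene. They were chosen by name: the cytosolic chaperones Hspa1a, Hspa1b, Hspa8, Hsph1, Hspb1, Dnajb1, Hsp90aa1 and Hsp90ab1, and the mitochondrial chaperonin genes Hspd1 and Hspe1. Each was read from array rows annotated with that gene symbol alone, and from the row with the highest mean where there were several. This gave a value for 8 of the 10 genes, out of 19938 genes in all. Hspa1b appeared only in a row shared with Hspa1a, and no row of the annotation used here carried Hsp90ab1 alone, so both are without a value of their own.

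RNA of total epithelial cell preparations was hybridised to Affymetrix whole-transcript gene arrays, 1 array per animal. The 3 transgenic animals carried R26-M2rtTA, a doxycycline-dependent transcriptional activator, together with a Musashi transgene under its control, which the series text gives as TRE-Msi1 and the genotype label as TRE-MSI2. The 3 control animals carried R26-M2rtTA alone. Animals of both groups drank doxycycline for 24 h, so the comparison asks what 24 h of transgene induction does and holds the drug constant. R26 is the Rosa26 locus, which is active in most cell types, so the activator is not restricted to the epithelium. Strain, age and sex are not given in the labels. Values are log2 signals, on which a difference of 1 is a doubling, ± is a standard deviation over 3 arrays, and a gene is said to pass at an adjusted p under 0.05 in limma with Benjamini-Hochberg adjustment over all 19938 genes.

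Heat shock proteins are chaperones, which keep other proteins folded or help them refold. The Hsp70 proteins bind exposed stretches of unfolded chains, J-domain proteins such as Dnajb1 bring them their clients, and Hsp110 proteins such as Hsph1 reload them with ATP. Hsp90 proteins act later, on clients such as kinases and steroid receptors. Heat and other protein-damaging stress release the factor HSF1, which binds heat shock elements, arrays of inverted GAA units, in front of the inducible genes. In the intestine inducible Hsp70 and Hspb1 are known as protective proteins of epithelial cells.

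Promoter windows show which members carry such elements close to their start. Windows of 250 bases before to 50 after the start were found for 7 of the 10 genes in the RefSeq table of build GRCm38.p6. Those of Hspa1a (chr17:34972107-34972406, minus strand) and Hspa1b (chr17:34959189-34959488, minus strand) are printed for their near identity, that of Hsph1 (chr5:149636266-149636565, minus strand) for its run of GAA units, and that of Hspe1 (chr1:55087898-55088197, plus strand) because Hspd1 starts from the same stretch on the other strand. Capitals mark the inverted pairs GAANNTTC and TTCNNGAA, each of which reads the same on both strands, and adjoining pairs share a unit.
Hspa1a: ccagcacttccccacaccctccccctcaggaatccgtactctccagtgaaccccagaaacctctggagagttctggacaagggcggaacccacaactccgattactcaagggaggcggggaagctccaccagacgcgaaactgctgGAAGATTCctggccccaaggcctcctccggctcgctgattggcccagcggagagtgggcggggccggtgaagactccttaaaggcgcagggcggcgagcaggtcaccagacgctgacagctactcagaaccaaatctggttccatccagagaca
Hspa1b: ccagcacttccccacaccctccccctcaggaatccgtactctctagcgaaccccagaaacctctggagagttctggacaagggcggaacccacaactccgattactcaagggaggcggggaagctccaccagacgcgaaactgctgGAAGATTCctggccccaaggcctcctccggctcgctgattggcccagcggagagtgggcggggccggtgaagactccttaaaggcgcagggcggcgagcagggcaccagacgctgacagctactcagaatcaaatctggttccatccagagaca
Hsph1: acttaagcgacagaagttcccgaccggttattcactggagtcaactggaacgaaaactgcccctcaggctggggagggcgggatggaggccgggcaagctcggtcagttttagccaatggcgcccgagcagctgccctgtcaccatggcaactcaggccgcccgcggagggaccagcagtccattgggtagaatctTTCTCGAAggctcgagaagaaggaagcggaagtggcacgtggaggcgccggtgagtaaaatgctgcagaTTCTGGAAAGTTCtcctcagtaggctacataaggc
Hspe1: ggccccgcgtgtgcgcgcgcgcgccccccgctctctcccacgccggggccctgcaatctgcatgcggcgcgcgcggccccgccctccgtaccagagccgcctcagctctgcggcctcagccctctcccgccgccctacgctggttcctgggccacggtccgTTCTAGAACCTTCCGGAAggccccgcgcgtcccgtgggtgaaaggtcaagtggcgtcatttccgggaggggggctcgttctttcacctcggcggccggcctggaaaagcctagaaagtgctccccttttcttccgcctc
The windows of Hspa1a and Hspa1b were equal at 296 of 300 positions (98.67%) and differed by C44T, T47C, T249G and C276T, with the Hspa1a base first and positions counted from 1 at the 5′ end. Each held 1 pair, GAAGATTC, beginning 104 bases before the start. The Hsph1 window held the pair TTCTCGAA 54 bases before the start and the 3-unit run TTCTGGAAAGTTC 15 bases after it. In the Hspe1 window the pairs overlapped into a run of 4 units that began 89 bases before the start. A start of Hspd1 lies 216 bases upstream of it in the opposite direction, its window shares 285 bases with that of Hspe1, and the same run lies 144 bases before that start. Another annotated Hspd1 start lies 95 bases on the other side of the Hspe1 start, and its window shares 4 bases with that of Hspe1 and holds no pair.

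At least 1 pair was found for 6 of the 7 genes with a window, against 16.97% of all 27025 genes with a window. A 3-unit run, GAANNTTCNNGAA or TTCNNGAANNTTC, was found for Hsph1, Hspd1 and Hspe1, against 0.6623% of all genes. Neither count is of separate sequences. The windows of Hspa1a and Hspa1b are nearly identical, and Hspd1 and Hspe1 share the same run. Hspb1 held GAAGTTTC and GAACCTTC, 117 and 97 bases before the start. Dnajb1 had no pair in either of its 2 windows, which says only that these letters are not there. A match is a match of letters and no measurement of binding.

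The labels and the arrays were checked first. Msi1 was 12.60 ± 0.09 in the transgenic arrays and 6.94 ± 0.09 in the control arrays (n = 3 each), and Msi2 was 8.22 ± 0.30 in the transgenic arrays and 8.64 ± 0.06 in the controls. Msi1 is thus the Musashi gene that was higher in the arrays labelled transgenic. Transgenic replicate 1 stood apart: its correlation with the other arrays across genes was 0.922 to 0.951, against 0.995 to 0.996 among control arrays and 0.996 between transgenic replicates 2 and 3. Of all genes 2368 passed (11.9%), in the transgenic arrays 1204 higher (6.04%) and 1164 lower (5.84%). When transgenic replicate 1 was left out, 5700 passed (28.6%). Results for the heat shock genes are therefore given with and without that array where it changes them. The epithelial markers Epcam, Cdh1 and Krt8 had signals of 11.73 to 12.92 on every array, while Cdx1 had 8.14 to 8.71.

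No heat shock protein gene passed: 0 of 8 were higher and 0 of 8 lower in the transgenic epithelium, against 11.9% of all genes in either direction. At an unadjusted limma p under 0.05 there were 2 of 8, Hspa8 and Hsp90aa1, against 25% of all genes. The median difference, transgenic minus control, was 0.13 over the 8 genes and -0.04 over all genes. The mean of the 8 genes was 9.68, 9.35 and 9.28 in the transgenic arrays, against 9.04, 9.22 and 9.45 in the controls. Control replicate 3 thus lay above transgenic replicates 2 and 3. Hspa8 and Hsp90aa1 were the members whose groups did not overlap, both with transgenic above control. That arrangement was found for 16% of all genes (34.2% without overlap in either direction). For Hspa8 this holds for 2 of its 3 array rows. With array weights these 2 genes passed, and without transgenic replicate 1 Hsp90aa1 passed. In the plot of signals by array, Hspa1a and Hsph1 spread most among the controls, Hsp90aa1, Hspd1 and Hspe1 stand out on transgenic replicate 1, Hspa8 lies slightly higher on every transgenic array, and Dnajb1 and Hspb1 are nearly level.

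**Figure D1:**
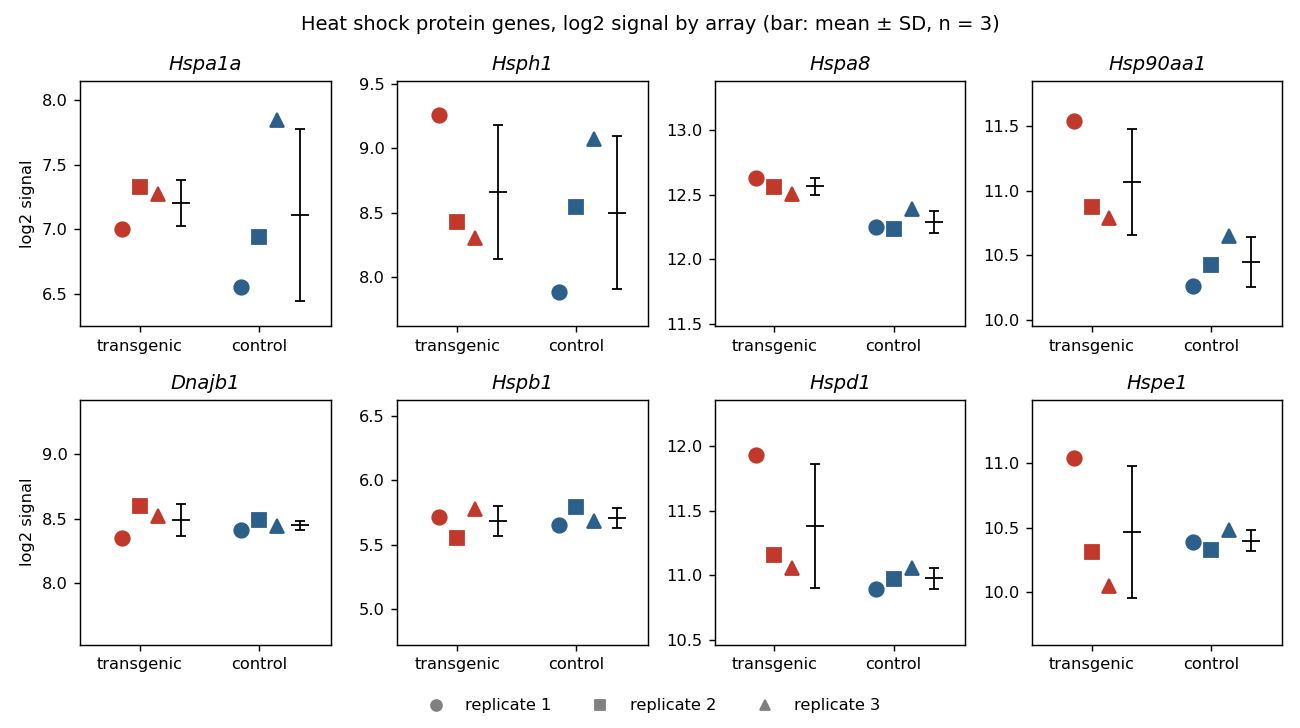
Log2 signal of each measured heat shock protein gene on every array, transgenic left and control right, with a symbol per replicate and the mean ± SD (n = 3) beside each group. Each panel spans the same 1.9 log2 units. Hspa1a and Hsph1 spread most among the controls, and Hsp90aa1, Hspd1 and Hspe1 have transgenic replicate 1 on top.

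Hspa1a, the stress-inducible cytosolic Hsp70, had signals of 7.00, 7.33 and 7.28 in transgenic replicates 1, 2 and 3, against 6.55, 6.94 and 7.85 in control replicates 1, 2 and 3. All 3 transgenic values lay inside the range of the controls. The difference was 0.09 (SE 0.33, 95% interval -0.71 to 0.89, limma adjusted p = 0.914), so a change of the group mean between 0.612-fold and 1.85-fold lies within the interval. Leaving out transgenic replicate 1 gave 0.19, leaving out control replicate 1 gave -0.19, and leaving out control replicate 3 gave 0.46 (95% interval 0.01 to 0.91, limma adjusted p = 0.249), so its sign and size rest on single arrays. The control range of 1.30 log2 units, 2.46-fold, was wider than that of 99.7% of all genes, whose median control range was 0.17. The row annotated to both Hspa1a and Hspa1b had 8.80, 8.92 and 8.90 in the transgenic arrays, against 8.24, 8.67 and 9.44 in the controls. It spread over the same arrays in the same way, with a control range of 1.20. How much of this signal comes from each gene was not tested.

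Hsph1, the inducible Hsp110 that serves as exchange factor for Hsp70, had 9.26, 8.43 and 8.30 in the transgenic arrays, against 7.88, 8.55 and 9.07 in the controls. Transgenic replicate 1 was the highest of the 6 and control replicate 1 the lowest, and the groups overlapped. The difference was 0.16 (SE 0.37, 95% interval -0.75 to 1.07, limma adjusted p = 0.858). It was -0.14 without transgenic replicate 1 and -0.15 without control replicate 1, so its sign rests on single arrays. Its control range, 1.19, exceeded that of 99.6% of genes. Control replicate 3 was highest and control replicate 1 lowest of the controls, as for Hspa1a and, over narrower ranges, Hsp90aa1 and Hspd1. The share of all genes with this order was not counted, so it is not shown to be particular to the members. Chaperones of the endoplasmic reticulum had it too, with list means of 9.69, 9.81 and 9.95 in control replicates 1, 2 and 3. Over all genes, 110 (0.552%) had a control range above 1, and Hspa1a and Hsph1 were the members among them.

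Hspa8, the constitutive Hsc70 of all cells, had 12.63, 12.56 and 12.50 in the transgenic arrays, against 12.25, 12.23 and 12.39 in the controls. Every transgenic array lay above every control array. The difference was 0.27 (SE 0.08, 95% interval 0.07 to 0.48), 1.21-fold, and did not pass (limma adjusted p = 0.0999). It stayed positive with each array left out, from 0.24 to 0.32, with limma adjusted p from 0.0786 to 0.317. It passed with array weights (0.27, limma adjusted p = 0.0383), where 5770 genes passed in all. This gene lies near the top of the scale, with 99.9% of genes lower in mean signal.

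Rows of Hspa8 did not behave alike, and which of them reads the gene itself rather than a near-identical copy was not tested. A second row had 12.61, 12.51 and 12.42 in the transgenic arrays, against 12.21, 12.20 and 12.33 in the controls, close to the row kept. The third, row 10584572, had 12.39, 12.36 and 12.25 in the transgenic arrays, against 11.20, 12.00 and 12.40 in the controls. Here, unlike in the row kept, the groups overlapped, the difference was 0.46 (SE 0.30, limma adjusted p over all rows = 0.477), and the control range was 1.20. Its lowest and highest controls were replicates 1 and 3, as for Hspa1a and Hsph1. A pair of further rows, shared between Hspa8 and small nucleolar RNA genes Snord14c and Snord14d, differed by -0.25 and -0.26 and did not pass.

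**Figure D2:**
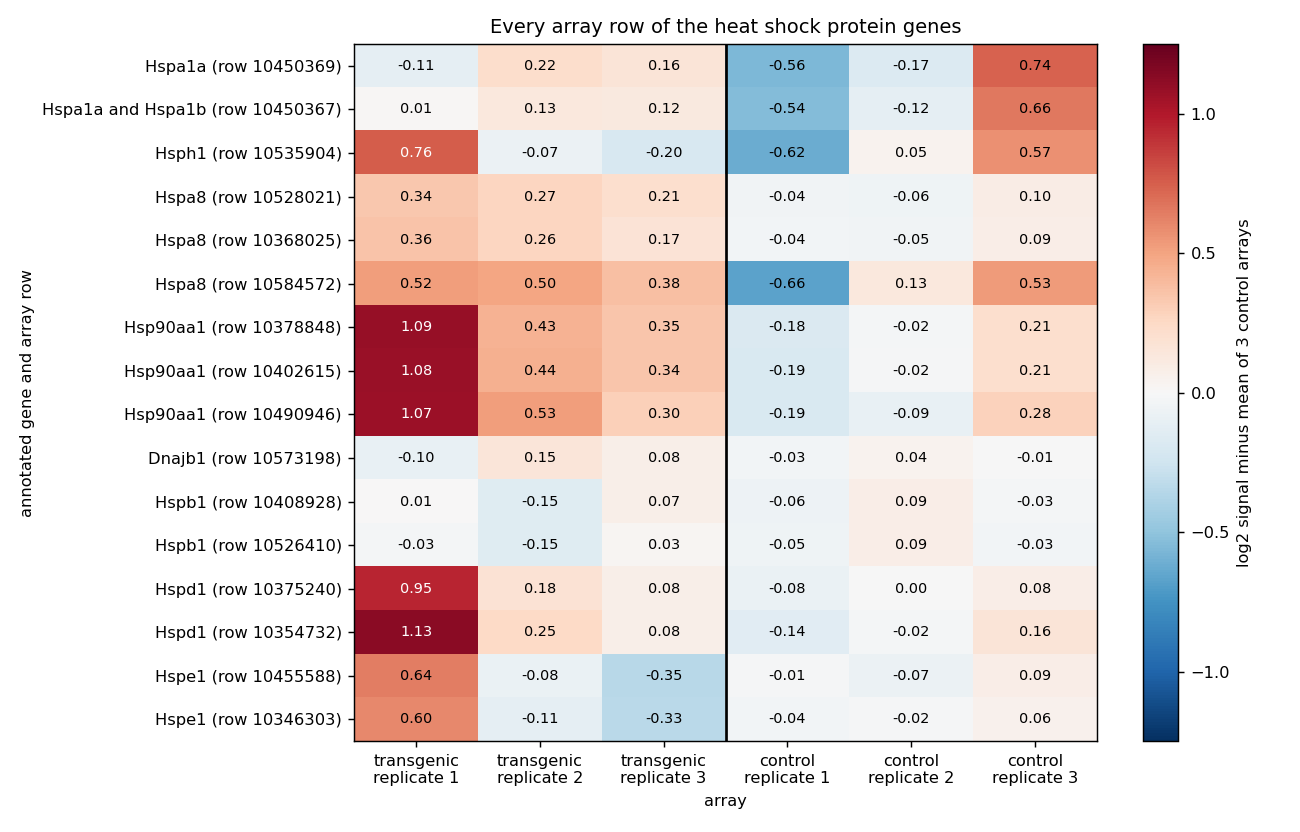
Log2 signal of the array rows of the heat shock protein genes, without the 2 rows that Hspa8 shares with small nucleolar RNA genes. Each row is shown minus its mean over the 3 control arrays, transgenic arrays left and control arrays right, with red higher and blue lower. The rows of Hsp90aa1, Hspd1 and Hspe1 repeat each other, and 1 of the 3 Hspa8 rows has a wide control spread (-0.66 to 0.53). Hspa1a, its row shared with Hspa1b, and Hsph1 run from blue to red across the controls. The rows of Hsp90aa1 and Hspd1 rise in the same order over smaller spans.

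Hsp90aa1, the inducible cytosolic Hsp90, showed the widest gap between the groups. Its signals were 11.54, 10.88 and 10.79 in the transgenic arrays, against 10.26, 10.42 and 10.65 in the controls. No control reached the lowest transgenic value, and transgenic replicate 1 was the highest. The difference was 0.62 (SE 0.22, 95% interval 0.08 to 1.16), 1.54-fold, and did not pass (limma adjusted p = 0.142). Without transgenic replicate 1 it was 0.39 (SE 0.12, 95% interval 0.11 to 0.66) and passed (limma adjusted p = 0.0421), in a setting in which 14% of all genes passed as higher. It also passed with array weights (0.49, limma adjusted p = 0.0297). Leaving out any other array gave 0.53 to 0.76 with limma adjusted p from 0.121 to 0.384. The 3 rows of this gene differed by 0.62, 0.62 and 0.63, and which locus each reads was not tested.

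Exact permutation tests (two-sided), which cannot give less than p = 0.1 for groups of 3, were run as well. That lowest value was reached by Hspa8 and Hsp90aa1, and the other members had exact permutation p from 0.2 to 1.

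**Figure D3:**
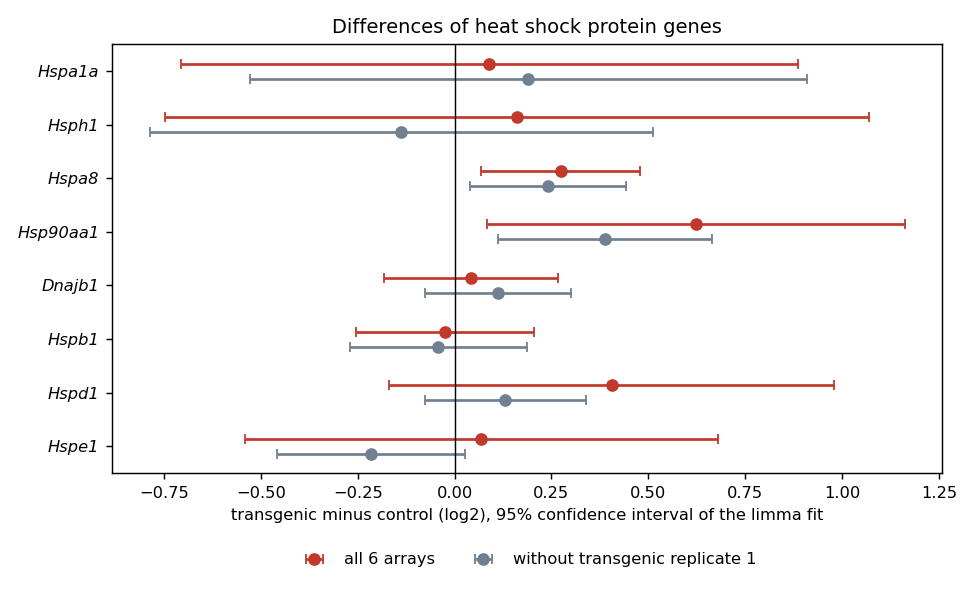
Difference of each heat shock protein gene, transgenic minus control in log2 units, with the 95% confidence interval of the limma fit, for all 6 arrays (red) and without transgenic replicate 1 (grey). The intervals of Hspa8 and Hsp90aa1 lie above 0 in both settings, those of Hspa1a and Hsph1 are the widest with all arrays, and the points of Hsph1 and Hspe1 change side.

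The J-domain partner of Hsp70 and the small heat shock protein were nearly level. Dnajb1, which delivers clients to Hsp70 and is itself heat-inducible, had 8.35, 8.60 and 8.52 in the transgenic arrays, against 8.41, 8.49 and 8.44 in the controls. The difference was 0.04 (SE 0.09, 95% interval -0.18 to 0.27, limma adjusted p = 0.845), with a control range of 0.07 where Hspa1a had 1.30. Hspb1, which holds unfolded proteins and protects the actin cytoskeleton, had 5.72, 5.56 and 5.78 in the transgenic arrays, against 5.65, 5.80 and 5.69 in the controls. Its difference was -0.03 (SE 0.09, 95% interval -0.26 to 0.20, limma adjusted p = 0.914), and its other row differed by -0.05. Which locus each of these rows reads was not tested. With 32.2% of genes lower in mean signal, Hspb1 lies in the dim part of the scale, where such arrays compress differences.

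The mitochondrial chaperonin is a barrel of Hspd1 (Hsp60) with a lid of Hspe1 (Hsp10), encoded head to head across the stretch printed above. Hspd1 had 11.93, 11.16 and 11.05 in the transgenic arrays, against 10.89, 10.97 and 11.06 in the controls. Hspe1 had 11.04, 10.32 and 10.05 in the transgenic arrays, against 10.39, 10.32 and 10.49 in the controls. Both were highest on transgenic replicate 1, by 0.95 and 0.64 above the control mean, while the mean of transgenic replicates 2 and 3 lay 0.13 above it for Hspd1 and at -0.22 for Hspe1.

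With all arrays the differences were 0.41 for Hspd1 (SE 0.24, 95% interval -0.17 to 0.98, limma adjusted p = 0.373) and 0.07 for Hspe1 (SE 0.25, 95% interval -0.54 to 0.68, limma adjusted p = 0.914). Without transgenic replicate 1 they were 0.13 (limma adjusted p = 0.377) and -0.22 (limma adjusted p = 0.187). Whether the pair differ from each other was not tested. The second row of Hspd1 differed by 0.48 and that of Hspe1 by 0.05. The RefSeq gene table holds 23 pseudogenes named for Hspd1 and 7 named for Hspe1, and array rows can pick up signal from such near-identical copies, so which locus a row reads is uncertain.

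Transgenic replicate 1 was the highest of the 6 arrays for 5 of the 8 members. The share of all genes highest on that array was not counted, so this is not shown to be particular to the members. The median member lay 0.49 above the control mean on that array, against -0.06 for the median of all genes, and 0.12 above it where transgenic replicates 2 and 3 were averaged. Marker genes moved with the same array. Markers of absorptive enterocytes averaged 9.55 on transgenic replicate 1, 11.94 and 11.90 on replicates 2 and 3, and 12.26 to 12.36 on the controls, with a sum over the 13 genes of 124 to 155 in the transgenic arrays and 159 to 161 in the controls. None of the 13 passed with all arrays, with Slc2a2 and Treh at -2.73 and -2.55, and 5 were lower without that array, a setting in which 14.5% of all genes passed as lower.

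Lymphocyte markers averaged 5.52, 7.15 and 7.13 in the transgenic arrays, against 7.37 to 7.70 in the controls, and their sum over 11 genes was 60.7 to 78.6 in the transgenic arrays and 81.1 to 84.7 in the controls. None passed, with Gzmb at -2.04 and Cd3g at -1.92. Without transgenic replicate 1, 5 were lower, where 14.5% of all genes passed as lower. The list mixes T, B and plasma cell markers, and 3 of 11 differences were above 0. These were the B cell markers Ms4a1, Cd79a and Cd79b, at 0.01, 0.16 and 0.11. Myeloid markers summed over 11 genes to 68.6 to 72.4 in the transgenic arrays and 67.9 to 68.0 in the controls. The higher transgenic sum came from Ly6g: without it the other 10 genes summed to 60.1 to 61.1 in the transgenic arrays and 63.0 to 63.2 in the controls. In the whole list 3 of 11 differences were above 0, with a median of -0.05. Ly6g passed as higher (4.87), while Lyz2 and Fcer1g were at -1.04 and -0.99 without passing. Stromal markers summed over 12 genes to 71.1 to 73.0 in the transgenic arrays and 72.5 to 74.1 in the controls, and 0 passed, with Dcn and Col3a1 at -0.46 and -0.17. Epithelial markers summed over 11 genes to 120.3 to 122.6 in the transgenic arrays and 123.3 to 123.6 in the controls. Of these 11 markers Cdh1 passed as higher (0.34) and Cldn3 as lower (-0.68), with Vil1 and Krt18 at -0.62 and 0.53. In this list 2 of 11 differences were above 0, with a median of -0.13. Transgenic lay below control without overlap for 5 genes and above it for 1, beside 18.2% and 16% of all genes. No marker is at 0 on this scale, whose lowest value is 2.41. Some lie well below the array medians of 6.27 to 6.34, such as Ms4a1 at 4.55 in the transgenic arrays and 4.54 in the controls. Whether such dim signals exceed background was not tested. The part of the marker genes in the heat shock values was not tested, and in bulk samples fewer cells of a type cannot be told apart from less RNA per cell.

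Genes around the heat shock proteins were counted from 6 lists of chaperones and their regulators. The plot of chaperone gene lists sets them beside the 8 members. Among 23 other Hsp70, small heat shock and J-domain proteins 3 rose and 1 fell (17.4%, beside 11.9% of all genes), with a median of 0.04. Hspa13, an Hsp70-like protein of microsomes, was 10.46 ± 0.13 in the transgenic arrays and 9.17 ± 0.18 in the controls, and rose by 1.30 (SE 0.12, limma adjusted p = 0.00324), with the call kept without each single array. Dnajb4, a J-domain relative of Dnajb1, rose by 1.07 (limma adjusted p = 0.0115, up to 0.0577 with 1 array left out). Dnajc7, which bridges Hsp70 and Hsp90, rose by 0.39 (0.03), and the small heat shock protein Hspb6 fell by 0.40 (0.0497), both called only with all arrays or without transgenic replicate 1 (up to 0.129 and 0.195). Hspa12a and the Hsp110 relative Hspa4l were at -1.07 and -0.51 and did not pass, but did without transgenic replicate 1 (-0.52 and -0.79).

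Of 21 measured co-chaperones 3 rose and 0 fell (14.3%, beside 11.9% of all genes), with a median of 0.35. Fkbp5, an Hsp90 partner in steroid receptor complexes and a known glucocorticoid-induced gene, was 10.84, 11.11 and 11.07 in the transgenic arrays, against 8.55, 8.74 and 9.62 in the controls. It rose by 2.03 (SE 0.28, limma adjusted p = 0.00912), 4.10-fold. Its control range was 1.07, and no other gene of the 6 chaperone lists had one above 1. Bag3, the stress-inducible exchange factor of Hsp70 and a known HSF1 target, was 9.29 ± 0.13 in the transgenic arrays and 8.53 ± 0.12 in the controls, a rise of 0.76 (SE 0.11, limma adjusted p = 0.00943). Unc45a, a myosin chaperone that works with Hsp90, rose by 0.60 (0.0147). With 1 array left out the limma adjusted p reached 0.0534, 0.0548 and 0.083. Ppid and Cdc37l1 were at 0.86 and 0.83 without passing. Without transgenic replicate 1 the list had 6 higher and 2 lower, where 28.6% of all genes passed, and the other single omissions left 1 to 4 calls, where 3.43% to 8.82% of all genes passed.

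Hsf1, the main heat shock factor, is not analysed here. Of 8 measured factors and regulators Hspbap1, which binds Hspb1, rose by 1.12 (SE 0.20, limma adjusted p = 0.0186, up to 0.0891 with 1 array left out). Hsf5 and Hsf2 were at -0.54 and 0.46 and did not pass. The 1 call is 12.5% of the list, beside 11.9% of all genes, and without transgenic replicate 1, where 28.6% of all genes passed, the list had 3 rises and 1 fall.

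The cytosolic chaperonin TRiC, which folds actin and tubulin, and prefoldin, which hands clients to it, had a median of 0.42. Of 14 genes Pfdn2 rose, by 1.28 (SE 0.18, limma adjusted p = 0.0102, up to 0.0583 with 1 array left out), which is 7.14% of the list, beside 11.9% of all genes. The chaperonin subunits Cct3 and Cct8 were at 0.86 and 0.79 without passing. On transgenic replicate 1 the median gene of this list lay 1.06 above the controls, whereas replicates 2 and 3 averaged 0.24 above. Omitting replicate 1 gave 6 rises and 1 fall, in a setting with 28.6% of all genes called (14% higher), and the other single omissions left 0 or 1 calls.

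Of 19 other mitochondrial chaperones and proteases 0 rose and 3 fell (15.8%, beside 11.9% of all genes), with a median of 0.19. Dnajc19, a part of the import machinery, fell by 0.67 (SE 0.09, limma adjusted p = 0.00724), and the inner membrane protease subunits Spg7 and Afg3l2 fell by 0.73 (0.0269) and 0.38 (0.028). With 1 array left out these reached limma adjusted p of 0.0518, 0.121 and 0.139. Grpel1 and Grpel2, the exchange factors of mitochondrial Hsp70, were at 0.69 and 0.56 without passing. Without transgenic replicate 1, where 28.6% of all genes passed, 4 rose and 5 fell.

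Chaperones of the endoplasmic reticulum formed the list with the largest share of calls among the 6. Of 17 genes 8 rose and 0 fell (47.1%, beside 11.9% of all genes), and the list median was 0.54, beside -0.04 for all genes. Transgenic lay above control without overlap for 12 of the 17, beside 16% of all genes. The reticular Hsp70 and Hsp90 proteins were among them. Hspa5 (BiP) was 12.23, 12.35 and 12.28 in the transgenic arrays, against 11.34, 11.61 and 11.82 in the controls, a rise of 0.70 (SE 0.14, limma adjusted p = 0.0256). Hsp90b1 was 11.54, 11.53 and 11.45 in the transgenic arrays, against 11.01, 11.04 and 11.27 in the controls, a rise of 0.40 (SE 0.10, limma adjusted p = 0.0497). Transgenic and control arrays did not overlap for either gene. Hyou1, the reticular Hsp110, rose by 0.77 (0.0127), the disulfide isomerases Pdia6 and Pdia4 by 0.86 (0.0164) and 0.67 (0.0156), the J-domain proteins Dnajb9 and Dnajb11 by 1.02 (0.0405) and 0.61 (0.0144), and Manf by 0.55 (0.0473).

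Each of these calls was lost without some array. None of the 17 passed without control replicate 1 or without control replicate 2, 4 passed without control replicate 3, 3 without transgenic replicate 2 and 4 without transgenic replicate 3, while 10 rose and 1 fell without transgenic replicate 1. Of all genes 3.43%, 3.65%, 4.41%, 5.86%, 8.82% and 28.6% passed in these settings, in the order named. Creld2 and Sdf2l1 were at 0.67 and 0.54 without passing. Whether the reticular list differs from the heat shock proteins was not tested.

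**Figure D4:**
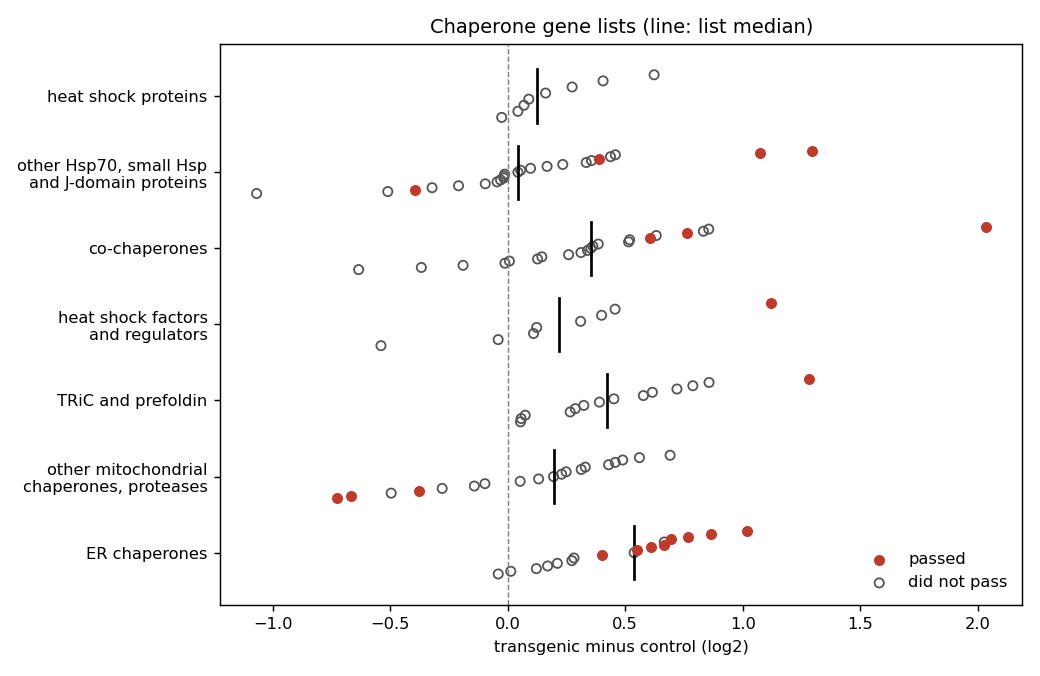
Difference of each gene, transgenic minus control in log2 units, in the heat shock proteins and 6 further lists, with filled red points for genes that passed the limma test at an adjusted p under 0.05, open points for the rest, and a line at each list median. None of the 8 heat shock proteins is filled, and 8 of the 17 genes of the endoplasmic reticulum (ER) are, all to the right of 0.

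Immediate early genes, which are known to respond to cell isolation as well as to growth factors, were counted because tissue handling can also induce heat shock genes. Of 18 genes 5 rose and 0 fell (27.8%, beside 11.9% of all genes), with list means of 8.70 to 8.93 in the transgenic arrays and 8.06 to 8.12 in the controls. Egr1 rose by 2.57 (SE 0.27, limma adjusted p = 0.0043), Dusp1 by 1.75 (0.00224), Atf3 by 1.76 (0.0186), Klf6 by 0.99 (0.00323) and Zfp36 by 0.81 (0.0456). With 1 array omitted, the calls of Atf3 and Zfp36 survived only where it was transgenic replicate 1, and Fosl1 and Myc were at 1.46 and 1.16 without passing. Fos was 9.33 to 9.58 in the transgenic arrays and 9.27 to 9.65 in the controls, with a control range of 0.38 beside 1.30 for Hspa1a. That range of Fos was still wider than that of 91.8% of all genes. The median control range was 0.33 over the immediate early genes and 0.17 over all genes. The part of these genes in the heat shock values was not tested.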

How the data were processed

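The deposited table holds log2 signals, made by the authors with RMA, robust multi-array averaging, and Partek 6.5, per the submitters' processing notes; the settings were not stated. Per the labels' protocols 250 ng of total RNA was used per array. RMA gives all arrays nearly the same distribution (medians 6.27 to 6.34 over 35399 rows) and compresses dim signals, so a change in total RNA cannot show. Precision is limited by having 3 arrays in each group.

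A single symbol was annotated for 21789 rows, more than 1 for 1621, and 11989 were unnamed. For each gene the row with the highest mean was used, giving 19938 genes, unfiltered. Groups follow the sample titles. The series text calls the samples animals, so arrays were treated as biological replicates. Transgenic minus control was tested by lmFit and eBayes of limma 3.58.1 (R 4.3.3), adjusted after Benjamini-Hochberg across the 19938 genes. Adjusted p values with arrays left out, weighted or blocked, and those over all rows, come from separate limma fits. Each was adjusted over the genes or rows of its own fit. The script was checked on simulated data. Motifs were searched in RefSeq promoter windows.

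The heat shock proteins and the lists were chosen with earlier results of these data known. Named genes are the members, Msi1, Msi2, the list members that passed (at most 8 by p) and the 2 largest differences that did not. Epcam, Krt8, Cdx1, Ms4a1, Cd79a, Cd79b, Fos and single rows were named beside these. Alternatives were a second quantile normalization, equal medians, removal of the dimmest 40% of genes, 2 replicate blocks, trend and robust eBayes, weighted arrays, averaging a gene's rows, all rows tested, an adjusted p under 0.1, and leaving out each array.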

Additional observations from a re-analysis of the deposited data

How the results depend on the processing

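Over 127 entries for the 8 heat shock genes in the alternative settings, 111 kept direction and side of the threshold, 4 became calls and 12 changed sign. Removal of dim genes, the block on title numbers, trend and robust eBayes, and testing all rows leave the difference as it is. So does an adjusted p under 0.1. There only the side of the threshold could move, so 111 is not a measure of stable direction. The calls were Hspa8 with array weights (0.27) and at an adjusted p under 0.1 (0.27), and Hsp90aa1 with array weights (0.49) and without transgenic replicate 1 (0.39). Thus 2 heat shock genes passed as higher with array weights, where 5770 of all genes passed. At an adjusted p under 0.1 it was 1, where 17.1% of all genes passed. No heat shock gene passed as lower in any setting. Changes of sign were Hspa1a without control replicate 1 (-0.19) and with the block on description numbers (-0.0903), Hsph1 in that block (-0.45) and without transgenic replicate 1 (-0.14) or control replicate 1 (-0.15), Hspb1 with equal medians (0.0132) and without transgenic replicate 2 (0.0382) or control replicate 2 (0.02), Dnajb1 without transgenic replicate 2 (-0.0100), and Hspe1 in that block (-0.22), with array weights (-0.11) and without transgenic replicate 1 (-0.22). None of these passed, and the cause was not tested. With an array left out, differences ran from -0.19 to 0.46 for Hspa1a, -0.15 to 0.45 for Hsph1, -0.0739 to 0.0382 for Hspb1, -0.0100 to 0.11 for Dnajb1 and -0.22 to 0.28 for Hspe1.

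With an array left out, 0 or 1 heat shock genes passed as higher, and the counts passing ran from 683 to 5700 for all genes, 1 to 9 for other Hsp70, small heat shock and J-domain proteins, 1 to 8 for co-chaperones, 0 to 4 for factors and regulators, 0 to 7 for TRiC and prefoldin, 0 to 9 for mitochondrial chaperones, 0 to 11 for reticulum chaperones and 3 to 9 for immediate early genes. Array weights gave 5770 genes in all and 10, 9, 3, 7 and 9 in the first 5 of these lists. At an adjusted p under 0.1, where 3409 of all genes passed (17.1%), 6 co-chaperones, 3 TRiC and prefoldin genes and 5 mitochondrial genes passed. All rows tested left 5 reticulum genes, and trend with robust settings 2 of the other Hsp70, small heat shock and J-domain proteins. The cause of these moves was not tested.

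Deviations from the group mean correlated at -0.07, -0.17 and -0.12 between arrays with the same title number. Transgenic replicate 1 weighs on the mean of its group, and pairs of unlike number were not compared. These values therefore cannot show that the arrays are unpaired. The descriptions number the arrays differently: they share only numbers 3 and 4, which pair the arrays titled 2 and 3 in each group (-0.17 and -0.12). The block on title numbers gave 733 genes, 1 gene of the other Hsp70, small heat shock and J-domain proteins, 0 mitochondrial and 0 reticulum genes. The block on description numbers leaves transgenic replicate 1 and control replicate 1 without a partner, so its difference rests on the other 4 arrays. It gave 4019 genes, 7 co-chaperones, 2 regulators, 2 TRiC and prefoldin genes, 6 mitochondrial genes and 8 immediate early genes. Neither block moved the count of heat shock genes from 0, but with the description block the difference of Hsp90aa1 was 0.30 in place of 0.62 and that of Hspd1 0.0908 in place of 0.41. The median SE of a difference was 0.23 over the heat shock genes and 0.12 over all genes, which limits what 3 arrays a group can show.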
